A study of Mus musculus with 12 samples.

Results

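The presynaptic vesicle release machinery was followed here as 38 genes in mouse cortex, of the 12563 genes tested on the arrays. The members were listed by symbol, and for each the transcript cluster annotated with that symbol alone was taken, at its highest mean where there were several. All 38 members had such a cluster and were tested. They comprised 8 SNARE proteins and their partners, 8 calcium sensors and related proteins, 11 proteins of the vesicle membrane, 7 proteins of the active zone and 4 proteins of endocytosis.

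The study crossed genotype with feed to ask which transcripts of the cortex follow mutant tau and which return when tau is lowered. RNA of whole cortex was hybridised to Clariom D arrays. Non mice were wild type FVB/NJ mice. Tg mice were rTg4510 mice, which carry Tg(Camk2a-tTA)1Mmay and Tg(tetO-MAPT*P301L)4510Kha/J. In these mice the Camk2a promoter, active in forebrain excitatory neurons, drives the tTA activator, which turns on human P301L tau until doxycycline blocks it. The Veh groups ate normal feed. The Dox groups, aged 3.5 months at the start, were given 200 ppm doxycycline in their feed over 35 days. By the labels, Tg + Dox mice still made transgenic tau, at a lower level than Tg + Veh mice. The Non mice lack the tTA transgene by their labels, so Tg and Non differ by both transgenes and their insertions. Non + Veh held 3 arrays, 1 of them male. Both of the 2 Non + Dox arrays were male. Tg + Veh held 3 arrays, 1 of them female, and Tg + Dox held 3, 1 of them male. The labels do not say how many mice each array holds, so a p measures the spread between these samples.

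At a synapse, vesicles filled with transmitter dock and are primed at the active zone, and calcium entry makes a sensor trigger their fusion. Fusion itself is the work of SNARE proteins on the vesicle and on the plasma membrane, which zip together and are later pulled apart for reuse. The vesicle membrane is then retrieved by endocytosis. Loss of presynaptic terminals and of their proteins is a known feature of tau pathology in cortex.

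Several arrays stood apart or went against a label. Another Tg + Veh array, replicate 4, had been removed by the study's quality control, and its median log2 signal was 5.58 against 5.44 to 5.503 on the 11 arrays used. Fgf14, in which the tau transgene of this line is inserted, ranged from 12.01 to 12.29 in Non mice, above all Tg arrays used (10.85 to 11.26). Esyt2, a gene at the tTA insertion, lay at 9.60 on Non + Veh 3 and 9.62 on Non + Dox 2, within the range of the Tg arrays, against 10.86 to 11.23 on the other Non arrays. At this locus both arrays go against their Non label, and for some of the members the differences without them are given beside the main comparisons. Gabra6, a receptor subunit of cerebellar granule cells, was at 8.53 on Tg + Dox 3 and 6.79 on Non + Veh 2, against 4.38 to 5.00 on the other arrays used. Neuronal identity was plain on every array, with Camk2a, a kinase of excitatory neurons, at 18.01 to 18.35.

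All values are log2 RMA signals, so a difference of 1 is a doubling of signal, and levels of different genes are not compared because probes differ in brightness. A gene was called where its adjusted p from limma, over all genes tested, was under 0.05. Of the members, 36 were above the study's signal threshold on all 11 arrays used, Doc2b on 9 and Otof on 8. The median SD within groups was 0.113 for the members and 0.0995 for all genes tested. In 23 members (60.5%, against 60.6% of all genes tested) at least 1 value was the same on more than 1 array, so small gaps between such arrays carry little information.

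In Tg + Veh cortex, most members had slightly lower signal than in Non + Veh cortex, and only Otof passed the test. Of the 38 members 33 were below 0 (86.8%), against 40.5% of all genes tested, and the median difference was −0.13 against 0.02 over all genes. Limma called 1 member lower and none higher, while it called 0.135% of all genes lower and 1.98% in either direction. At an unadjusted p under 0.05, 7 members were lower (18.4%, against 3.43% of all genes) and 1 was higher (2.63%, against 10.2%). For 11 members every Tg + Veh array lay below every Non + Veh array (28.9%, against 5.28% of all genes), and for 1 member above (2.63%, against 13.5%). The mean signal over the 38 members was 12.05 to 12.20 on the Non + Veh arrays and 11.95 to 11.97 on the Tg + Veh arrays. The count of 33 was also 33 without Non + Veh 3 and Non + Dox 2, with a median of −0.16, and 33 when Tg + Veh 4 was added.

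**Figure D1:**
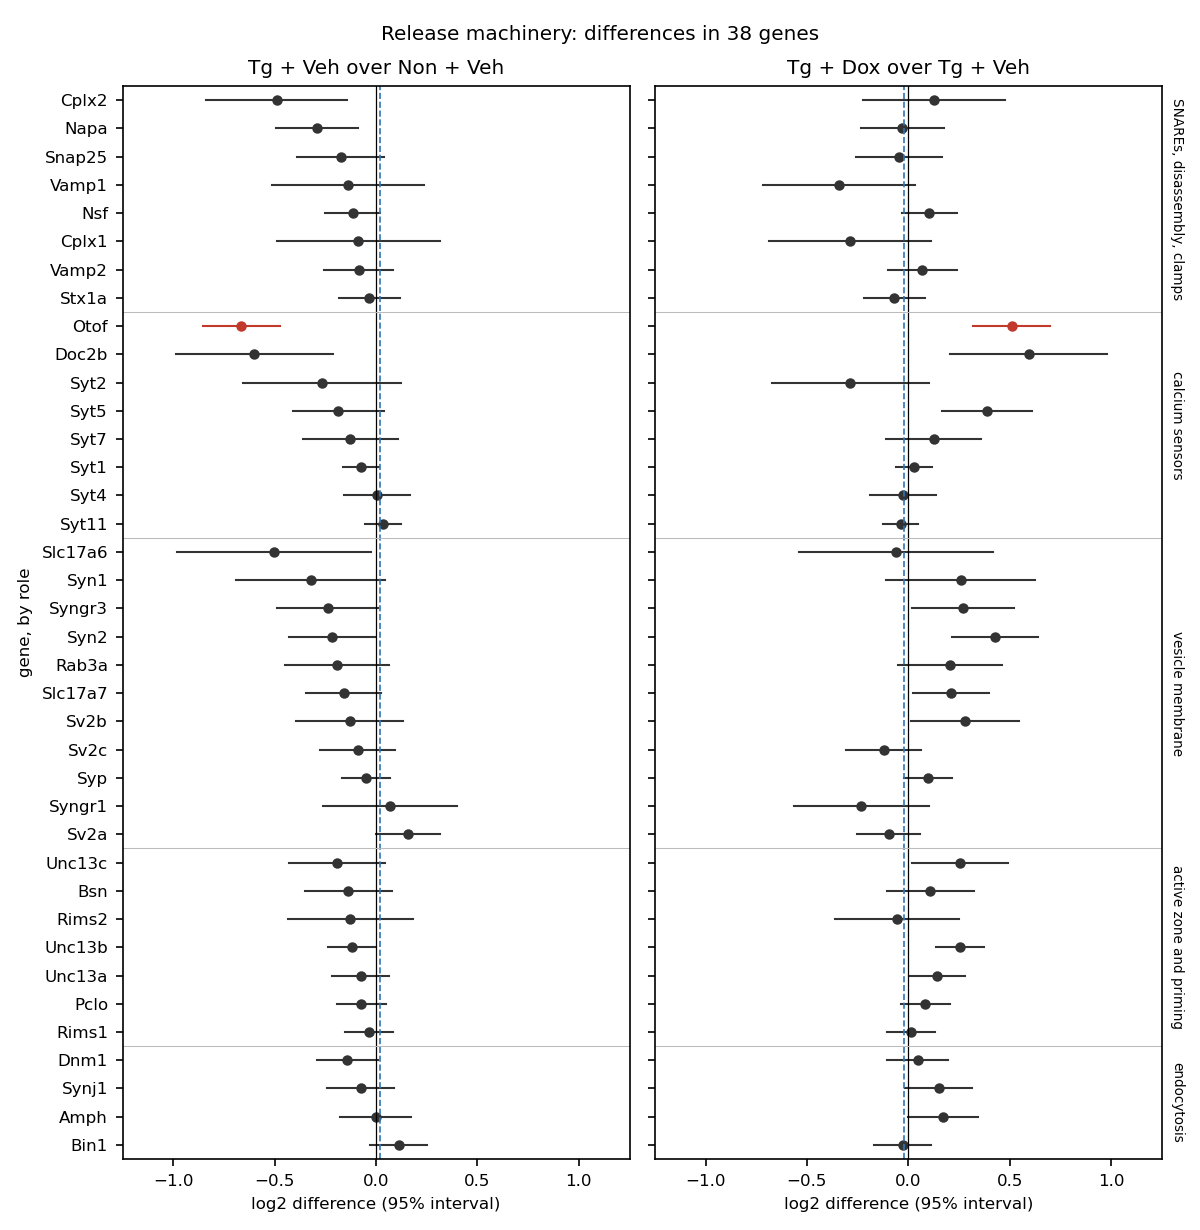
Log2 differences of the 38 members with their 95% intervals from limma, by role, for Tg + Veh over Non + Veh (left) and Tg + Dox over Tg + Veh (right). Red marks a called gene, the dashed line is the median of all genes tested, and Otof is the called gene in both panels, at −0.67 and 0.51.

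The SNARE proteins that carry out fusion were separated by small differences between the genotypes on Veh feed, and Cplx2 and Napa lay further below. All 8 genes of this role were below 0, with a median of −0.13, and none was called. Snap25, a SNARE of the plasma membrane, had signals of 18.43, 18.70 and 18.35 in Non + Veh and 18.37, 18.34 and 18.25 in Tg + Veh. The groups overlapped, at a difference of −0.17 (95% interval −0.39 to 0.04, adjusted p = 0.469, limma), which was −0.07 without Non + Veh 2. Stx1a, its partner on the plasma membrane, was at 11.84, 11.87 and 11.73 against 11.85, 11.66 and 11.82, a difference of −0.03. Vamp2, the main SNARE of vesicles in forebrain, was at 10.19, 10.33 and 10.17 against 10.21, 10.15 and 10.07, a difference of −0.09. Both groups of arrays overlapped, and the 95% intervals were −0.19 to 0.12 and −0.26 to 0.08. The Vamp2 difference ranged from −0.12 to −0.04 when single arrays were left out. Cplx2, a complexin that holds assembled SNAREs ready for the calcium trigger, was at 12.69, 12.81 and 12.29 in Non + Veh and at 11.88, 12.18 and 12.26 in Tg + Veh. Every Tg + Veh array lay below every Non + Veh array, though the highest and lowest nearly met, and the difference of −0.49 was not called (95% interval −0.84 to −0.14, adjusted p = 0.19, limma). Napa, which with Nsf takes spent SNARE complexes apart, differed by −0.29 (adjusted p = 0.184, limma), and Nsf by −0.11.

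Among the calcium sensors, Otof fell in Tg + Veh and Doc2b had the next largest difference. Otof encodes otoferlin, known as the sensor of vesicle release in inner hair cells of the ear. Its signal was 7.13, 7.23 and 7.05 in Non + Veh, 7.32 and 7.28 in Non + Dox, 6.34, 6.52 and 6.54 in Tg + Veh and 6.90, 7.15 and 6.90 in Tg + Dox. The Tg + Veh arrays lay below all others and under the signal threshold, so Otof entered the test only through the groups in which it was higher. It fell by 0.67 in Tg + Veh over Non + Veh (SE 0.0838, adjusted p = 0.00801, limma) and by 0.49 over both feeds (adjusted p = 0.0161, limma). These sizes rest on signals under the threshold, and with Tg + Veh set at the threshold itself Otof was at least 1.3-fold lower than in Non + Veh. Whichever single array was left out, the first of these stayed called, at an adjusted p of up to 0.0449, but with Tg + Veh 4, at 6.56, it was 0.0566. Doc2b encodes a sensor of high calcium affinity linked to spontaneous and asynchronous release. Its signals were 7.25, 7.22 and 7.15 in Non + Veh, 8.26 and 7.95 in Non + Dox, 6.41, 6.62 and 6.79 in Tg + Veh and 7.53, 7.26 and 6.81 in Tg + Dox. On each feed every Tg array was below every Non array. Doc2b fell by 0.75 with genotype over both feeds (SE 0.129, adjusted p = 0.0382, limma), and its difference of −0.60 on Veh feed alone was not called (adjusted p = 0.143). Over both feeds limma called 2 members lower, against 0.0955% of all genes tested. That call of Doc2b was lost without Non + Veh 1, 2 or 3, without either Non + Dox array, and without Tg + Veh 1, Tg + Veh 2 or Tg + Dox 2, at adjusted p values of up to 0.137. The call of Otof over both feeds was lost without Non + Veh 1 or 2 or either Non + Dox array, at up to 0.0737. With both Non + Veh 3 and Non + Dox 2 left out, and so with a single Non + Dox array, the differences over both feeds were −0.85 for Doc2b and −0.53 for Otof.

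No synaptotagmin was called between the genotypes on Veh feed. Syt1, the fast sensor of most forebrain synapses, was at 17.50, 17.55 and 17.49 in Non + Veh and 17.43, 17.48 and 17.40 in Tg + Veh, a difference of −0.07 (95% interval −0.16 to 0.01). The other synaptotagmins ranged from −0.27 for Syt2, the fast sensor of many inhibitory terminals, to 0.03 for Syt11, a member of the family that does not bind calcium.

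**Figure D2:**
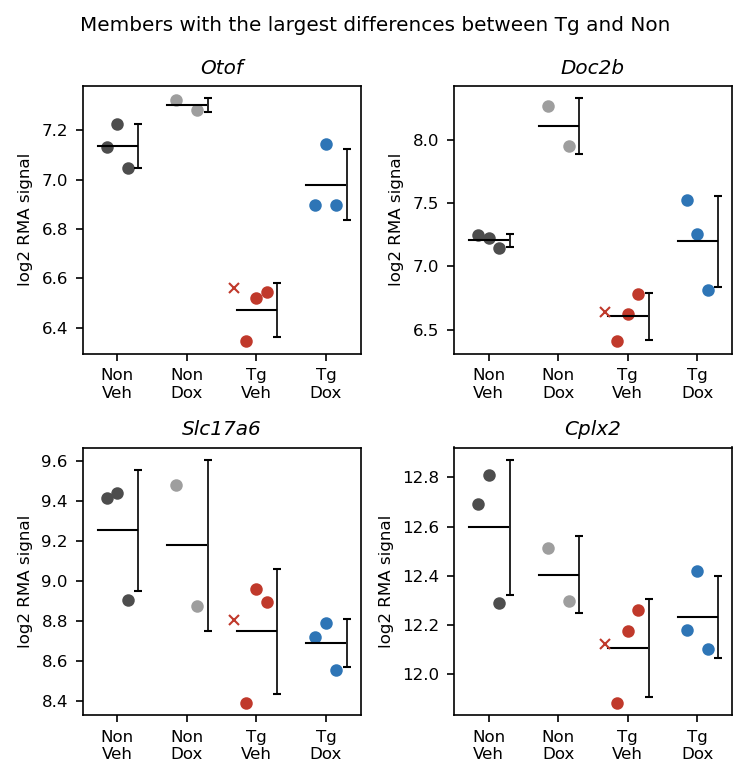
Log2 RMA signal of Otof, Doc2b, Slc17a6 and Cplx2 on each array (points), with the group mean (horizontal line) and SD (bar, n = 3, or n = 2 for Non + Dox); the cross is Tg + Veh 4, which is in no mean. The 3 Tg + Veh points of Otof, at 6.34 to 6.54, lie below all points of the other groups.

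Of the 11 genes of the vesicle membrane, 9 were below 0 on Veh feed, with a median of −0.16 and none called. Slc17a6, the vesicular glutamate transporter of thalamic and other subcortical neurons, was at 9.41, 9.44 and 8.91 in Non + Veh and at 8.39, 8.96 and 8.90 in Tg + Veh. It was at 9.48 and 8.88 in Non + Dox and at 8.72, 8.79 and 8.56 in Tg + Dox. Non + Veh 3 and Non + Dox 2, the arrays whose Esyt2 signal was that of Tg arrays, were the lowest of their groups for Slc17a6. The difference was −0.50 on Veh feed (adjusted p = 0.336, limma) and −0.49 on Dox feed, and without those arrays −0.68 and −0.79, the latter against a single Non + Dox array. When single arrays were left out it ranged from −0.68 to −0.32 on Veh feed, the smaller size without Tg + Veh 1. On Dox feed it was −0.19 without Non + Dox 1, and it was called in none of these cases. Slc17a7, the glutamate transporter of cortical neurons, differed by −0.16 on Veh feed. Syn1, a synapsin that ties vesicles into their reserve pool, was at 15.44, 15.57 and 15.24 against 15.28, 15.10 and 14.90, overlapping groups with a difference of −0.32 (adjusted p = 0.43, limma). Syp, synaptophysin, a common protein marker of terminals, differed by −0.05 (95% interval −0.17 to 0.07). Sv2a was the only member higher at an unadjusted p under 0.05, by 0.16. The 7 genes of the active zone were all below 0 with a median of −0.12, from −0.19 for Unc13c to −0.04 for Rims1. They include the scaffolds Bsn and Pclo and the Unc13 genes, which prime vesicles. Of the 4 endocytic genes Bin1 differed by 0.11, and Dnm1, the dynamin that cuts vesicles free, by −0.14.

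In Tg mice on Dox feed, Otof rose from its Tg + Veh level, and Doc2b, Syn2 and Syt5 had differences of 0.39 to 0.59 that did not pass. Limma called 1 member higher, against 0.0796% of all genes tested, and 0 lower, against 0.613%. At an unadjusted p under 0.05, 10 members were higher (26.3%, against 5.67% of all genes) and 0 lower (against 10.4%). For 9 members all Tg + Dox arrays were above all Tg + Veh arrays (23.7%, against 5.31% of all genes). The median over the members was 0.09, or 0.04 without Tg + Dox 2, against −0.02 over all genes, and 14 of 38 were below 0, against 56.9% of all genes. This comparison shares the Tg + Veh arrays with the one between genotypes, so opposite signs in the 2 are not independent. Otof rose by 0.51 (SE 0.0838, adjusted p = 0.0359, limma), and every Tg + Dox array lay between the Tg + Veh and the Non + Dox arrays. The call was lost when any array other than Tg + Dox 3 was left out, at adjusted p values of up to 0.104, and also with no filter on low signal, at 0.078. All Tg + Veh arrays were under the signal threshold, and with Tg + Veh set at that threshold Otof was at least 1.16-fold higher on Dox feed. Vamp1 had the largest difference downward, −0.34, and was not called. It was −0.18 without Tg + Dox 1 and −0.49 without Tg + Dox 3. Doc2b differed by 0.59 (adjusted p = 0.151, limma), and its lowest Tg + Dox array, replicate 3 at 6.81, was barely above the highest Tg + Veh array. Without Tg + Dox 3, limma called 4 members higher, namely Doc2b, Otof, Syn2 and Unc13b, of 177 genes called in all.

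On Dox feed no gene (0% of those tested) was called between Tg and Non mice, 755 (6.01%) at an unadjusted p under 0.05 and among them 3 members. Doc2b differed by −0.91 (95% interval −1.34 to −0.47), Unc13c by −0.46 (−0.72 to −0.20) and Otof by −0.32 (−0.53 to −0.11), each with an adjusted p of 0.69 in limma. The Tg + Dox arrays of all 3 lay below the Non + Dox arrays, as for 5 members in all (13.2%, against 8.92% of all genes). Without Non + Veh 3 and Non + Dox 2, and so against a single Non + Dox array, the differences were −1.063, −0.53 and −0.34, and none was called. Vamp1 was at 10.43, 10.78 and 11.06 in Tg + Dox and at 10.66 and 10.34 in Non + Dox, groups that overlapped. The core genes differed by 0.07 for Snap25, 0.01 for Stx1a, 0.04 for Vamp2 and −0.01 for Syt1. The median over the members was 0.01.

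Differences by feed ran in both directions, with Doc2b furthest up and Vamp1 furthest down, and no member passed in Non mice or over both genotypes in limma. In Non mice, where there is no tau transgene to shut off, no gene was called (1328, or 10.6%, at an unadjusted p under 0.05). Of the members 5 were higher (against 6.54% of all genes) and 5 lower (against 4.03%) at that level, each 13.2% of the 38, and their median was −0.02 against 0.01 over all genes. The groups did not overlap for 13 members (34.2%, against 24.8% of all genes). Over both genotypes 22 members were above 0 and 16 below (42.1%, against 51.6% of all genes). Of these, 8 were higher (21.1%, against 8.01% of all genes) and 5 lower (13.2%, against 9.54%) at an unadjusted p under 0.05. Non + Dox holds males only, so feed and sex are partly confounded.

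In Non mice and over both genotypes, the largest differences downward on Dox were those of Vamp1, Syt2 and Cplx1, none of them called. Napa and Snap25 were the other members lower at an unadjusted p under 0.05, at −0.32 and −0.29 in Non mice and at −0.18 and −0.17 over both genotypes. Vamp1, a vesicle SNARE, was at 11.38, 11.32 and 11.02 in Non + Veh, 10.66 and 10.34 in Non + Dox and 11.21, 11.13 and 10.96 in Tg + Veh. It differed by −0.74 in Non mice (SE 0.185, adjusted p = 0.255, limma), by −0.34 in Tg mice and by −0.54 over both genotypes (adjusted p = 0.086). Syt2 was at 8.69, 8.79 and 8.499 in Non + Veh, 8.34 and 7.84 in Non + Dox, 8.36, 8.47 and 8.36 in Tg + Veh and 7.77, 8.13 and 8.41 in Tg + Dox. Its differences were −0.57 in Non mice and −0.43 over both genotypes (adjusted p = 0.144, limma), and in Non mice it was −0.82 without Non + Dox 1 and −0.32 without Non + Dox 2. Cplx1, a complexin, was at 15.33, 15.33 and 14.81, then 14.67 and 14.64, then 15.16, 15.10 and 14.95, then 14.41, 14.91 and 15.02 in the same order of groups. It differed by −0.51 in Non mice and −0.40 over both genotypes. Without Non + Veh 3 and Non + Dox 2, and so with a single Non + Dox array, the differences in Non mice were −0.69 for Vamp1, −0.40 for Syt2 and −0.66 for Cplx1. Of the 10 interneuron markers tested, 4 were below 0 in Non mice, with a median of 0.01, and 6 over both genotypes, with a median of −0.04, and none was called. One of them, Pvalb, the marker of fast-spiking interneurons, chosen after its values were seen, was lowest on the same arrays as Vamp1 and Syt2, at 7.53 on Non + Dox 2 and 7.79 on Tg + Dox 1, against 8.16 to 8.54 on the Veh arrays. Over both genotypes it differed by −0.43 (adjusted p = 0.175, limma). Markers of other interneurons went both ways. Sst, Reln and Adarb2 differed by 0.18, 0.40 and 0.16, whereas Vip and Npy were lower on Dox feed on average. In Tg mice Vip was at 10.63, 10.97 and 10.79 on Veh feed and at 9.93, 10.13 and 10.94 on Dox feed. Npy in Tg mice was at 12.51, 12.045 and 12.06 on Veh feed and at 11.32, 11.47 and 12.003 on Dox feed. The part of Pvalb cells in the differences of Vamp1, Syt2 and Cplx1 was not tested. In bulk cortex, fewer cells of a type and less RNA per cell cannot be told apart. Tg + Veh 4, left out here, had Vamp1 at 10.51, below the other Veh arrays, and Pvalb at 8.67.

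In Non mice and over both genotypes, the largest differences upward on Dox were those of Doc2b, Syt5, Unc13c and Syn2, none of them called. The other members higher at an unadjusted p under 0.05 were Sv2a in Non mice, by 0.22, and over both genotypes Otof by 0.34, Slc17a7 by 0.17, Amph by 0.15 and Unc13b by 0.14. Syn2, a synapsin, was at 11.70, 11.88 and 11.79 in Non + Veh, 12.04 and 12.21 in Non + Dox, 11.55, 11.58 and 11.60 in Tg + Veh and 12.04, 12.17 and 11.79 in Tg + Dox. Within each genotype every Dox array was above every Veh array, by 0.33 in Non and 0.43 in Tg mice on average (adjusted p = 0.347 and 0.082, limma). Syt5, another synaptotagmin, was at 14.25, 14.47 and 14.38, then 14.65 and 14.89, then 14.09, 14.33 and 14.13, then 14.51, 14.71 and 14.49. It too did not overlap within either genotype, at 0.41 in Non and 0.39 in Tg mice. Unc13c, a priming factor best known from cerebellum, was at 9.003, 9.05 and 8.99 in Non + Veh, 9.61 and 9.46 in Non + Dox, 8.63, 8.84 and 8.99 in Tg + Veh and 9.26, 9.01 and 8.96 in Tg + Dox. Its difference was 0.52 in Non mice (SE 0.116, adjusted p = 0.238, limma) and 0.26 in Tg mice, where the groups overlapped. Doc2b differed by 0.90 in Non mice (SE 0.192, adjusted p = 0.232, limma). Without Non + Veh 3 and Non + Dox 2, the differences in Non mice were 0.25 for Syn2, 0.29 for Syt5, 0.58 for Unc13c and 1.027 for Doc2b. Over both genotypes the adjusted p was 0.051 for Doc2b, 0.0583 for Syn2 and Otof, 0.0585 for Syt5 and 0.0679 for Unc13c, none of which passed, whereas limma called 0.501% of all genes. Without Tg + Dox 3 it called 6 members, Doc2b, Otof, Syn2, Syt5, Unc13c and Vamp1, of 289 genes. In the 10 other cases of a single array left out it called 0 members. Leaving out both Non + Veh 3 and Non + Dox 2 keeps a single Non + Dox array. The differences over both genotypes then went from 0.75 to 0.81 for Doc2b, from 0.38 to 0.34 for Syn2 and from 0.40 to 0.34 for Syt5. Those of Unc13c and Otof went from 0.39 to 0.42 and from 0.34 to 0.33. Tg + Dox 3 had the lowest Syn2, Syt5, Unc13c and Doc2b and the highest Vamp1, Syt2 and Cplx1 of the Tg + Dox arrays. Its Wfs1, a gene of hippocampal and superficial cortical neurons, was at 10.61 against 11.07 to 11.56 on the other Dox arrays and 10.30 to 10.61 on the Veh arrays used. Of the 3 hippocampal markers tested, Cpne4 and Prox1 did not set Tg + Dox 3 apart from the other Tg + Dox arrays. Cpne4 was at 10.206 on both Tg + Dox 3 and Tg + Dox 1, and Prox1 was at 7.345 on Tg + Dox 3 against 7.331 on Tg + Dox 2. Tg + Dox 3 also had the highest mean signal of microglial markers among the Tg + Dox arrays, 8.65 against 8.11 and 8.15. Its mean for astrocyte markers was the highest too, at 12.06 against 11.56 and 11.735. Its mean for oligodendrocyte markers was the lowest, at 10.55 against 10.756 and 10.627. The part of the dissected region or of the glial markers in these differences was not tested.

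**Figure D3:**
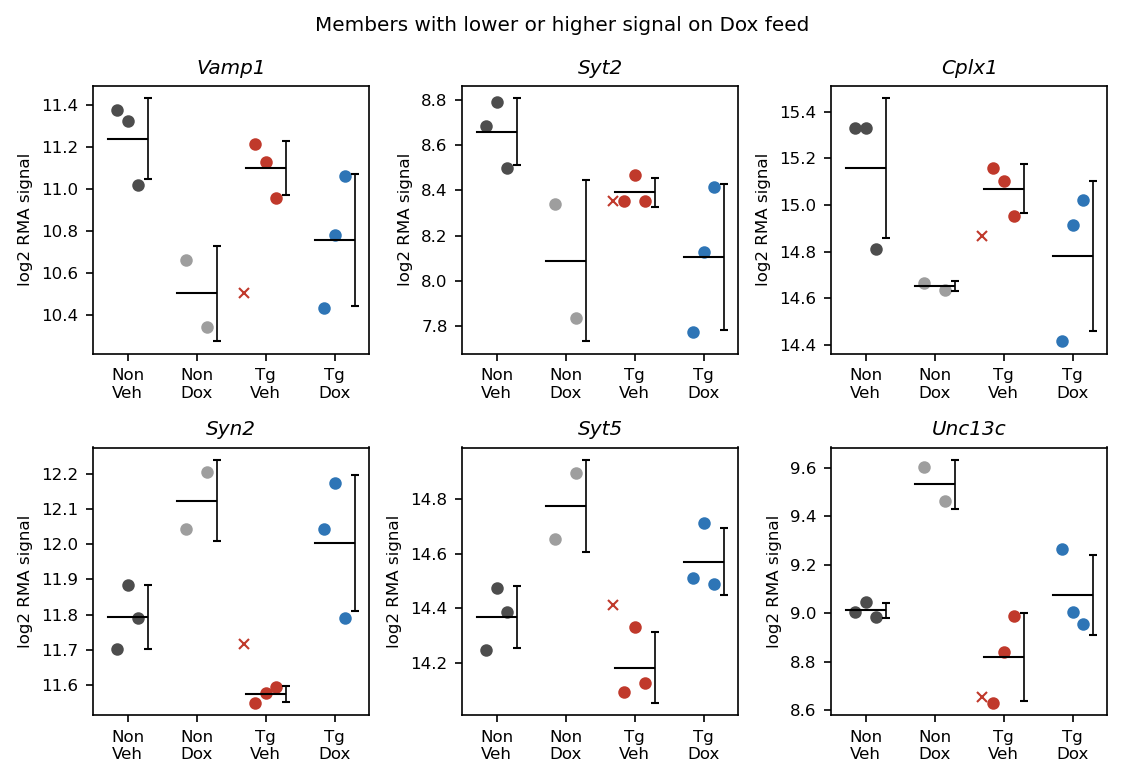
Log2 RMA signal of Vamp1, Syt2, Cplx1, Syn2, Syt5 and Unc13c on each array (points), with group mean (line) and SD (bar, n = 3, or n = 2 for Non + Dox); the cross is Tg + Veh 4, which is in no mean. Syn2 and Syt5 lie higher on every Dox array than on the Veh arrays of the same genotype, and Vamp1 is at 10.34 and 10.66 in Non + Dox against 11.02 to 11.38 in Non + Veh.

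The two-way test of the study's methods, at a p of 0.01 or less, was passed for feed by 7 members (Vamp1, Syt5, Syn2, Unc13b, Unc13c, Doc2b and Otof) and by 5.13% of all genes tested. It was passed for genotype by Unc13c, Doc2b and Otof (3.77% of all genes), and for the interaction by 0 members (1.46% of all genes). Limma called no gene for the interaction, with 3 members at an unadjusted p under 0.05 (7.89%, against 8.23% of all genes). Of these 3, 2 were above 0 (5.26%, against 1.58% of all genes) and 1 below (2.63%, against 6.65%). Whatever their p, 7 of the 38 members were below 0 (18.4%, against 60.6% of all genes). With no call, no member was shown to answer feed differently in Tg and Non mice. Unc13b, another priming factor, was looked at only because it passed the two-way test. It was at 8.82, 8.90 and 8.89 in Non + Veh, 8.89 and 8.90 in Non + Dox, 8.79, 8.72 and 8.74 in Tg + Veh and 8.98, 9.11 and 8.93 in Tg + Dox. Its higher values were those of Tg + Dox, 0.26 above Tg + Veh (adjusted p = 0.0656, limma).

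The promoters of the members past that test for feed are shown because these genes passed the same term of the test, and 4 of the 7 had an entry in the RefSeq promoter table (GRCm38.p6), Syn2 at the first of its 2 starts. Each runs from 250 bases before to 50 bases after the start of transcription, 5′ to 3′ on the strand of the gene. Capitals mark matches, on either strand, to a GC box (GGGCGG), an Egr site (GCGGGGGCG), a cAMP response element (TGACGTCA) or the CAGCTG form of the E-box. Other forms of the E-box were not searched and are not marked.
Vamp1, chr6:125215331-125215630, plus strand: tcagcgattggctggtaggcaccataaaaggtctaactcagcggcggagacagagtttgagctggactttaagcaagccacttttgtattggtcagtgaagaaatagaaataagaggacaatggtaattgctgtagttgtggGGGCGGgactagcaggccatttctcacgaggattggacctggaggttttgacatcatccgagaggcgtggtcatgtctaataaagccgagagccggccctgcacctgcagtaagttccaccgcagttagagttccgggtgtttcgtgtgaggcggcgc
Syn2, chr6:115134652-115134951, plus strand: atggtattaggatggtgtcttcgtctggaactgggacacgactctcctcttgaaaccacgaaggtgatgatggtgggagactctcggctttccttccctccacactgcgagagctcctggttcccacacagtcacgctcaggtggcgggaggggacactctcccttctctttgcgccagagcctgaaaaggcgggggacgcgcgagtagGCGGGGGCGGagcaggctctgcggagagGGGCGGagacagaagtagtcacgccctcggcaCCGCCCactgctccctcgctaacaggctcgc
Unc13b, chr4:43058703-43059002, plus strand: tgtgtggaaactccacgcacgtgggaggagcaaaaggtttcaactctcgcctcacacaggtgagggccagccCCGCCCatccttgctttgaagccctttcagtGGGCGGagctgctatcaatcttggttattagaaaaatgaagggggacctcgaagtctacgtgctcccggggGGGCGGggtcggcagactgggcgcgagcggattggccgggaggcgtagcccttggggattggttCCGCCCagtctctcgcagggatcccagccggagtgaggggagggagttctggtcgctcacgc
Unc13c, chr9:73968988-73969287, minus strand: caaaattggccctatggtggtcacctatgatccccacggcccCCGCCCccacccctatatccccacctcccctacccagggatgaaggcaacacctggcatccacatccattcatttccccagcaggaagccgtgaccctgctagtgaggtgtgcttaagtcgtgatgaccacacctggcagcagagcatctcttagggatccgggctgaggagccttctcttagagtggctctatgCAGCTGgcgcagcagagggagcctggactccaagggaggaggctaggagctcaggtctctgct
The GC box was in 35.7% of the 32851 promoters of the table, in 23 of the 28 members with an entry and in all 4 of these. The table was counted by promoter, and a member was counted once where any of its starts had a match. Shares of the table and counts of members are therefore not in the same unit. The Egr site was in 2.91% of the table and, of the 28 members, in Syn2, Cplx1 and Syngr1. In Syn2 it shares bases with a GC box, so both are within 1 run of capitals. The CAGCTG form of the E-box was in 16.3% of the table and in 9 of the 28 members, Unc13c among the 4 shown. The cAMP response element, at 1.79% of the table, was in none of the 4.

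Beyond the 38 members, 80 further presynaptic genes were tested, of 89 listed. Between the genotypes on Veh feed 39 of the 80 were below 0, with a median of 0.00, whereas 33 of 38 members were below 0. Both lists were chosen with earlier results of these data known, so the contrast between them is a description and not a test. In Tg + Dox over Tg + Veh 40 of 80 were below 0. Only Cplx3, a complexin of deep-layer and retinal neurons, was called between genotypes on Veh feed. It was at 7.63, 7.45 and 7.54 in Non + Veh and at 7.88, 8.12 and 7.80 in Tg + Veh, and rose by 0.39 (adjusted p = 0.0479, limma). Syt10, a synaptotagmin that in olfactory neurons acts in IGF-1 secretion, was the only one called for feed. It was at 8.90, 9.38 and 8.88 in Non + Veh, 10.43 and 10.14 in Non + Dox, 8.996, 8.98 and 9.38 in Tg + Veh and 9.90, 10.075 and 9.42 in Tg + Dox, and rose by 0.95 over both genotypes (adjusted p = 0.0479, limma). All its Dox arrays lay above its Veh arrays.

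Markers of other cell types differed in the same comparisons. In Tg + Veh over Non + Veh all 8 markers of microglia tested were higher, by a median of 1.31, and 5 were called. Among these, Trem2 passed the signal filter only through Tg + Veh 1 and 2 (7.11 and 6.79), so its direction was fixed by the filter. The listed P2ry12 and Tmem119 stayed under the threshold and were not tested. Tmem119 was at 6.47, 6.36 and 6.47 in Non + Veh and at 6.47, 6.41 and 6.48 in Tg + Veh. P2ry12 was at 5.98, 5.63 and 6.05 against 6.31, 6.07 and 6.21. All 7 of astrocytes were higher by a median of 0.49 (5 called), and all 8 of oligodendrocytes by 0.48 (5 called). The mean signal of the microglial list was 7.72 to 7.93 in Non + Veh, 9.02 to 9.60 in Tg + Veh and 8.11 to 8.65 in Tg + Dox. Markers of neurons in general, 14 tested, had a median of −0.06 with 10 below 0, and those of excitatory neurons, 10 tested, a median of −0.19 with 7 below 0. Neither list held a called gene. The mean signal of the neuronal list was 12.49 to 12.63 in Non + Veh and 12.44 to 12.48 in Tg + Veh. Markers of interneurons, 10 tested, had a median of 0.12. In Tg + Dox over Tg + Veh the glial lists had medians of −0.81 (microglia), −0.45 (oligodendrocytes) and −0.33 (astrocytes), the neuronal list 0.06. The part of these shifts in the lower signal of the members in Tg + Veh was not tested.

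**Figure D4:**
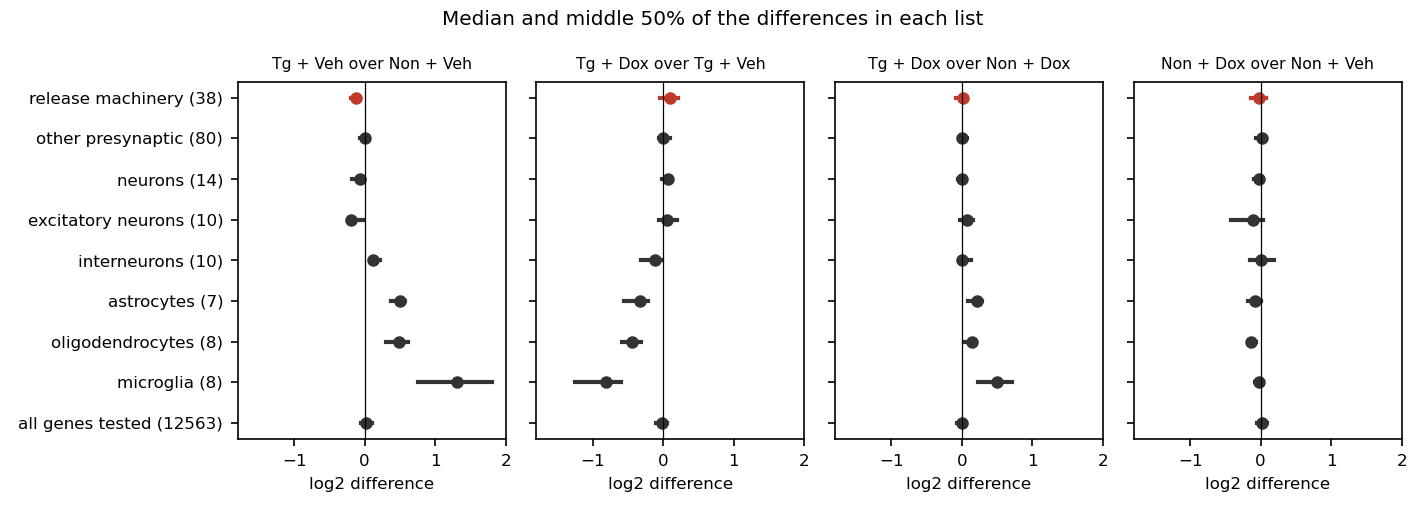
Median (point) and middle 50% (bar) of the log2 differences in each gene list, with the number of genes tested in parentheses, in the 4 comparisons between groups. In Tg + Veh over Non + Veh the release machinery lies at −0.13 beside neuronal markers at −0.06 and microglial markers at 1.31.

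**Figure D5:**
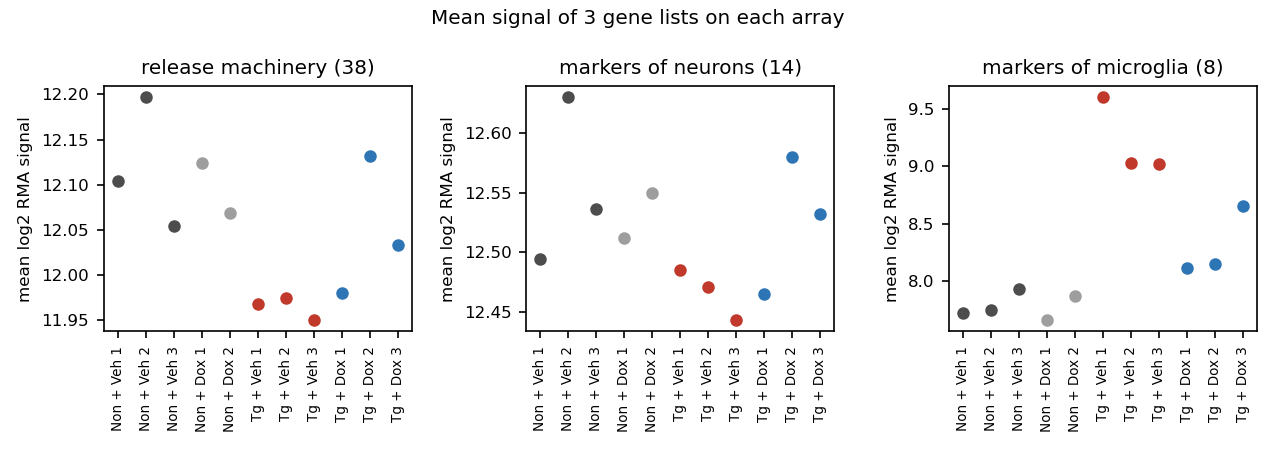
Mean log2 RMA signal of the release machinery, of neuronal markers and of microglial markers on each of the 11 arrays used, with different vertical scales. The members lie at 11.95 to 11.97 on the 3 Tg + Veh arrays and at 12.05 to 12.20 on the Non + Veh arrays, and Tg + Dox 1, at 11.98, is next to the Tg + Veh arrays.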

How the data were processed

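The members and the other gene lists were chosen with earlier results of these data known. RNA from mouse cortex was labelled and hybridised to Clariom D arrays. The authors computed signals with RMA, and the deposited values are log2 intensity per transcript cluster on 12 arrays. The genome build of the array annotation is not given in the sources used here. From these values, 1 cluster per gene was kept (a single symbol, highest mean), and 12563 of 30176 genes had a log2 signal above 6.76, the threshold of the methods, on at least 1 of the 11 arrays left after quality control. The 4 group means were fitted in 1 model with limma 3.58.1 in R 4.3.3, all groups sharing the estimate of the spread (7 residual degrees of freedom), and p-values were two-sided and adjusted by Benjamini-Hochberg over all genes tested. Genes named with every array's value were those called, the 5 with the largest difference in each comparison of 2 groups, and Snap25, Stx1a, Vamp2 and Syt1. Unc13b was added after its values were seen. The fit was tested on simulated data. Alternatives were each array left out, all 12 arrays, the replicate number as a block, sex, signal filters, the choice of cluster, scaling, variance model, groups fitted and the methods' two-way test. The number of arrays limits the precision, and no scan batch was given.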

Additional observations from a re-analysis of the deposited data

Results flagged for a closer look

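With replicate 4 included, Tg + Veh has 4 arrays. For 4 of the 38 members a single array stood apart from the other 3, with a gap over the range past Dixon's critical value. That ratio can be large for a small gap where the other 3 nearly coincide, as they did for Syp and Syt2. Chance gives about 1 such group in 20. Amph, an adaptor of endocytosis, was at 12.59 on Tg + Veh 4 against 12.80 to 12.84 on the others. Syngr1, a vesicle membrane protein, was at 11.39 on Tg + Veh 1 against 11.001 to 11.06. Syp was at 9.74 on Tg + Veh 1 against 9.69 on the other arrays. Syt2 was at 8.47 on Tg + Veh 2 against 8.35 on the other arrays, which share 1 value. Only the flag of Amph involves the array that quality control removed.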

How the results depend on the processing

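The call of Otof in Tg + Veh over Non + Veh was kept in every alternative except all 12 arrays (0 members called) and a filter for signal above the threshold on all 11 arrays (0, since Otof does not pass it), and leaving out single arrays gave 1 throughout. In Tg + Dox over Tg + Veh the 1 member called became 0 to 4 when single arrays were left out, of 3 to 177 genes called. It became 0 with all 12 arrays, with the replicate block, with sex as a term, with no filter on low signal, with the all-array filter, with only the groups compared and without Non + Veh 3 and Non + Dox 2. It became 2 (Otof and Unc13b) with quantile normalization again, of 81 genes called, or with median centring, of 72. The 2 members called for genotype over both feeds became 0 to 2 when single arrays were left out, of 5 to 138 genes called. They became 0 with all 12 arrays, the replicate block, the all-array filter, without both Non arrays or by the methods' test after Benjamini-Hochberg, and 1 with sex as a term or no filter. The 0 members called for feed became 0 to 6 when single arrays were left out, of 0 to 289 genes called. They became 4 with median centring (Doc2b, Otof, Syn2 and Syt5), of 81 genes, and 7 by the methods' test, which 5.13% of all genes passed. Beyond these constructions the cause was not tested. Stx1a in Tg + Veh over Non + Veh ranged from −0.0741 to 0.0223 when single arrays were left out, and its sign turned only without Tg + Veh 2.

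Same-numbered arrays of different groups did not deviate together (r of −0.304 to 0.407 over 15 pairs, 4 above 0.1; 2 of 11 arrays correlated best with their own number), so the numbers were not taken to pair them. With the replicate block, the genes called fell from 249 to 122, from 87 to 11, from 100 to 7 and from 63 to 0 in the comparisons of Tg + Veh with Non + Veh, Tg + Dox with Tg + Veh, genotype and feed. Over all genes the count of 249 ranged from 64 to 247 and the count of 63 for feed from 0 to 289 when single arrays were left out, and with all 12 arrays they were 1 and 0. For 22 pairs of a named gene and a comparison not called, 2 of 501 alternative values were called and 1 had the other sign. These pairs hold none for feed over both genotypes and none of Unc13b. There, members not called in the main fit were called in some alternatives, as given above. Groups hold only 2 or 3 arrays, and Otof and Doc2b lie near the signal threshold.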
